A study of Mus musculus with 4 samples.

Results

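The mature microRNAs (miRNAs) of the embryonic mouse gonad were followed through 4 libraries, taken daily between E11.5 and E14.5. The members were selected on the deposited read counts of these same libraries: a mature miRNA was kept when it reached at least 10 counts in any library, and miR-6236 and miR-6240 were left out. This left 68 of the 1851 mature miRNA rows listed, of which 635 had any count, among 40999 rows of all kinds. The counts that chose the members are the ones described here, so the changes over time are a description and no test is given for them. At the edge of the rule, miR-3064-3p was kept with a highest count of 10, while miR-1839-3p, miR-677-3p and miR-667-3p stopped at 9.

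Each library came from gonads of wild-type C57BL/6J embryos, at least 6 from males and 6 from females of 2 litters, mixed in equal numbers. The groups were the ages E11.5, E12.5, E13.5 or E14.5, with 1 library at each age, so no difference between ages could be set against a spread between replicates. At E11.5 the mesonephros, the embryonic kidney beside the gonad, was kept with the gonad, and the 3 later libraries held gonads alone. RNA was depleted of ribosomal RNA (rRNA), fragmented, tailed and sequenced with strand and molecule tags, without selection for small RNA. Since a pool mixes the cell types of both sexes, fewer cells of a type and less RNA per cell cannot be told apart in any value below.

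A miRNA is cut from a hairpin in a longer primary transcript by Drosha with Dgcr8, exported from the nucleus and cut again by Dicer1, after which a single strand is held by an Argonaute protein. Bases 2 to 8 of this mature strand, the seed, pair with target messenger RNAs, and miRNAs that share a seed are treated as a family. Many hairpins lie in introns or exons of host genes, or next to each other in clusters that are transcribed together. The let-7 family is known to accumulate as tissues mature, the miR-17 to miR-92 cluster is known from dividing cells, and miR-202 is known as a gonad-enriched miRNA.

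Mature sequences from RefSeq on GRCm38.p6 were matched by name for 60 of the 68 members. The strands the results turn on are shown 5′ to 3′ with the seed in capitals, so that family members can be told apart. The 5 let-7 members share a seed and are shown because their proportions differed between the libraries.
let-7a-5p: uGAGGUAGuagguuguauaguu
let-7b-5p: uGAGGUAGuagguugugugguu
let-7c-5p: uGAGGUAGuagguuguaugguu
let-7e-5p: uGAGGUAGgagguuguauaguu
let-7f-5p: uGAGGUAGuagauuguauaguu
Counted from 1 at the 5′ end and with the base of let-7a-5p named first, let-7c-5p differed by A19G, let-7e-5p by U9G, let-7f-5p by G12A, and let-7b-5p by A17G and A19G.

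The next strands are those of the miR-125 seed, whose members also changed in proportion, of the miR-10 seed, whose members lie in Hox clusters, and of the miR-17 to miR-92 cluster with miR-93-5p from its copy in Mcm7.
miR-125a-5p: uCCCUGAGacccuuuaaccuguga
miR-125b-5p: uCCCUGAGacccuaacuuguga
miR-351-5p: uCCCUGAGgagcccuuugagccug
miR-10a-5p: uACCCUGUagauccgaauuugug
miR-10b-5p: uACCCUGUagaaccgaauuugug
miR-17-5p: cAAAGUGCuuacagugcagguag
miR-20a-5p: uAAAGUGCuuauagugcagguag
miR-93-5p: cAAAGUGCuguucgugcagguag
miR-92a-3p: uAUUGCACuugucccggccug
With miR-10a-5p first, miR-10b-5p differed by U12A. With miR-17-5p first, miR-20a-5p differed by C1U and C12U, and miR-93-5p by U10G, A11U, C12U and A13C. miR-92a-3p carries another seed than its cluster neighbours.

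The last strands shown, of members with large changes or many counts, share their seeds with no other member, and 3 of them are made mostly of G and C.
miR-196a-5p: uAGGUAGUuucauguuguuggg
miR-202-5p: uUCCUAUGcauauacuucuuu
miR-672-5p: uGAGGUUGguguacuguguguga
miR-6538: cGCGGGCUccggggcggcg
miR-5126: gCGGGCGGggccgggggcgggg
miR-2137: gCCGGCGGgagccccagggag
The share of G and C was 94.7% in miR-6538, 100% in miR-5126 and 85.7% in miR-2137, against a median of 47.8% over the 60 members with a sequence. Those 60 had a median length of 22.0 bases, between 16 and 26, and 38 began with U. In all, 5 seeds were shared by 2 or more members and covered 15 members, the last of the 5 being that of miR-15b-5p and miR-16-5p. By position, 28 members fell into 13 clusters whose neighbours lay at most 10 kb apart on one strand.

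The libraries held 31266481, 25593453, 31752562 and 31526303 deduplicated counts from E11.5 to E14.5, the order in which all values below are given. The members took 6388, 6097, 5895 and 4602 of them, which is 204 CPM (counts scaled to a common library total) at E11.5 (95% counting interval 199 to 209), 238 at E12.5 (232 to 244), 186 at E13.5 (181 to 190) and 146 at E14.5 (142 to 150). The floor set for a row without counts was 3 counts in a library, equal to 0.117 CPM at E12.5 and 0.0945 to 0.0959 CPM at the other ages. All intervals cover counting error only. Counts of rRNA took 17.7%, 8.90%, 8.72% and 48.9% of the libraries. Ratios between ages used TMM-scaled counts, in which the libraries are brought to a common level over all rows. Scaling by total counts instead shifted all log2 ratios by 0.15, 0.03 and -1.01 in the 3 steps, so the last step depends most on the scale.

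Most of the member counts lay on a few rows. miR-6538 had 2580, 2783, 2768 and 1702 counts. miR-5099 had 1275, 1410, 1297 and 592 counts. Together they held 60.3%, 68.8%, 69.0% and 49.8% of the member counts. The other members were sparse: the median of the highest count per member was 29.0, 8 members reached 100 counts in a library, and 31 members had at least 10 counts in every library.

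A member was called higher or lower between neighbouring ages when its TMM-scaled ratio was at least 2-fold and its exact counting interval excluded no change, among rows with at least 10 counts in either library. From E11.5 to E12.5, 6 of 62 counted members were higher and 11 were lower, or 9.68% and 17.7%, beside 8.22% higher and 8.48% lower over all 19500 counted rows. From E12.5 to E13.5, 1 of 52 was higher and 8 were lower, or 1.92% and 15.4%, beside 2.64% and 1.51% of all rows. From E13.5 to E14.5, 28 of 48 were higher, or 58.3%, and none was lower, beside 5.59% and 1.75% of all rows. Of the 8 lower calls at E13.5 only that of miR-1983 held under all 5 scalings tried, and those of miR-99b-5p, miR-17-5p, miR-483-3p, miR-351-5p, miR-8097, miR-719 and miR-3064-3p were lost when scaled by the members' summed counts. Since the members were chosen on these counts, the shares are read as a description. A member that reached 10 counts in 1 library alone was kept because of that library, so its higher level there follows in part from the rule. Among the called members this holds at E11.5 for miR-10a-5p, miR-615-3p, miR-93-5p, miR-744-5p and miR-3063-3p. At E12.5 it holds for miR-8108, miR-8097, miR-719 and miR-3064-3p, and at E14.5 for miR-23b-3p, miR-2137 and miR-6238.

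**Figure D1:**
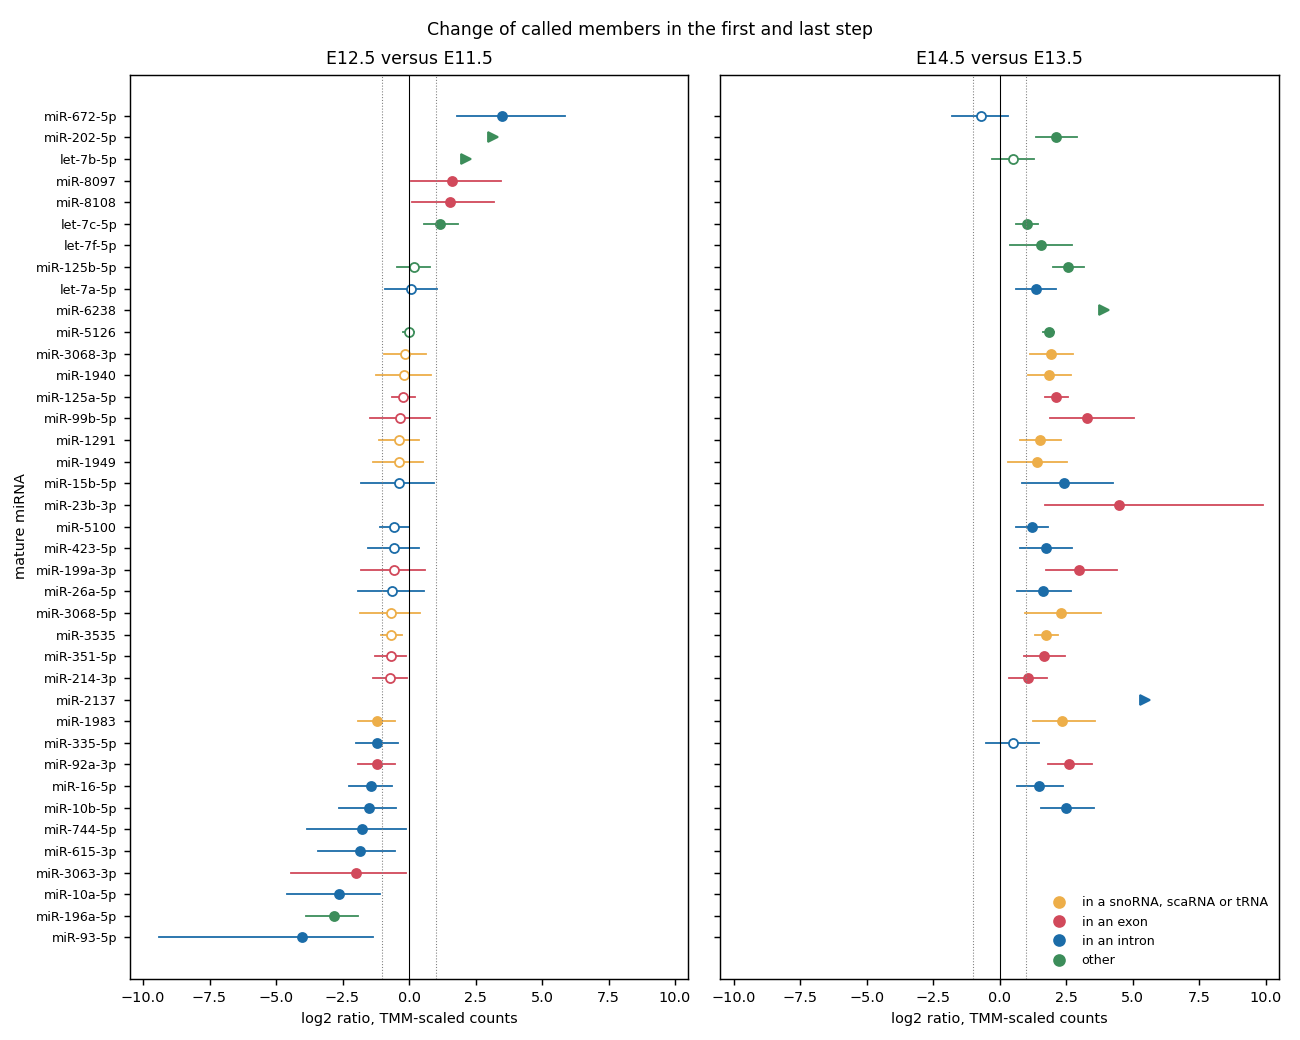
Log2 ratio of TMM-scaled counts on the x axis for each member called in the first or the last step (y axis), with E12.5 versus E11.5 on the left and E14.5 versus E13.5 on the right. Filled points were called and open points were not, and lines are 95% counting intervals. Triangles mark a ratio against the floor put for a count of 0, drawn without an interval. Dotted lines mark a 2-fold ratio, and colours give where the miRNA lies. On the left 11 members were lower and 6 higher, and on the right all 28 calls lie above 0.

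Other small RNAs moved in the same steps. Among 258 counted tRNA rows 73.3% were higher at E14.5, and among 113 snoRNA and scaRNA rows 72.6% were. Median log2 ratios in this step were 1.31 for tRNA rows, 1.46 for snoRNA and scaRNA rows, 1.37 for the members and -0.06 for all rows. In the first step 19.6% of tRNA rows and 17.9% of snoRNA and scaRNA rows were lower, and in the second 7.98% and 1.77%.

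The split of the last step depended on the scaling. On total counts 11 members were higher at E14.5 and 7 were lower. The part that the rRNA content of this library plays was not tested. The 5 scalings tried were TMM, DESeq2 size factors, total counts, and the members' summed counts with or without miR-6538 and miR-5099. Called higher at E14.5 under all 5 were 8 members: miR-125b-5p, miR-92a-3p, miR-10b-5p, miR-199a-3p, miR-99b-5p, miR-23b-3p, miR-2137 and miR-6238. Of these, miR-23b-3p, miR-2137 and miR-6238 reached 10 counts in the E14.5 library alone. Their higher level there is thus part of how they were chosen and lends no weight to the step.

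In the let-7 family, let-7b-5p and let-7c-5p rose from E11.5 to E12.5. let-7c-5p had 33, 68, 99 and 98 counts. let-7b-5p had 0, 12, 36 and 25 counts. Both were lowest at E11.5. The TMM-scaled level of let-7c-5p was 2.26-fold higher at E12.5 (log2 1.18, 95% counting interval 0.56 to 1.83). let-7b-5p was 4.40-fold higher at E12.5 against a floor of 3 counts in the E11.5 library, with a lower limit of log2 1.61 by the counting interval. At E13.5 let-7b-5p was 2.36-fold higher again (log2 1.24, 0.26 to 2.32), the single higher call of that step. These 3 calls held under all 5 scalings.

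The other let-7 members were not called in the first step. let-7e-5p had 64, 52, 82 and 55 counts and was called in no step. let-7a-5p had 20, 19, 28 and 35 counts, with a log2 ratio of 1.35 (0.59 to 2.12) at E14.5. let-7f-5p had 8, 9, 12 and 17 counts, with 1.53 (0.38 to 2.73) at E14.5. The higher calls of let-7a-5p, let-7f-5p and let-7c-5p (log2 1.01) at E14.5 were absent on total counts, where let-7c-5p stood at -0.00. The 5 members summed to 125, 160, 257 and 230 counts, with TMM log2 ratios of 0.49, 0.34 and 0.86. On total counts the last of these became -0.15.

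Shares within the family do not depend on any scaling between libraries. They are shares of the summed counts of the 5 let-7 members, while 15 let-7 family rows had a count. let-7e-5p made up 51.2% of the let-7 counts at E11.5 (exact 95% interval 42.1 to 60.2), 32.5% at E12.5 (25.3 to 40.3), 31.9% at E13.5 (26.3 to 38.0) and 23.9% at E14.5, where it had 55 of 230 counts. let-7c-5p had 33 of 125 counts, or 26.4%, at E11.5 and 42.5% (34.7 to 50.6), 38.5% (32.5 to 44.8) and 42.6% (36.1 to 49.3) later. let-7b-5p had 0 of 125 counts at E11.5, which allows a share of up to 2.91% by the exact interval, and 7.50%, 36 of 257 counts and 10.9% later. The member with the most counts was thus let-7e-5p at E11.5 and let-7c-5p at each later age. The intervals of let-7e-5p at E11.5 and E12.5 do not overlap.

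Genes that control let-7 formed a list of 7. Lin28a, an RNA-binding protein that blocks let-7 processing, had 394, 994, 1479 and 418 counts and was higher at E12.5 (log2 1.47). Lin28b, its paralog, had 1008, 421, 549 and 228 counts and was lower in the same step (log2 -1.12). The inhibitor pair thus moved in opposite directions in the step in which let-7b-5p and let-7c-5p rose. The other 5 genes were called in no step, among them the uridyltransferases Zcchc11 (log2 -0.31 at E12.5) and Zcchc6 (-0.01), the exonuclease Dis3l2 (-0.18) and Trim71 (0.86), itself a known let-7 target.

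**Figure D2:**
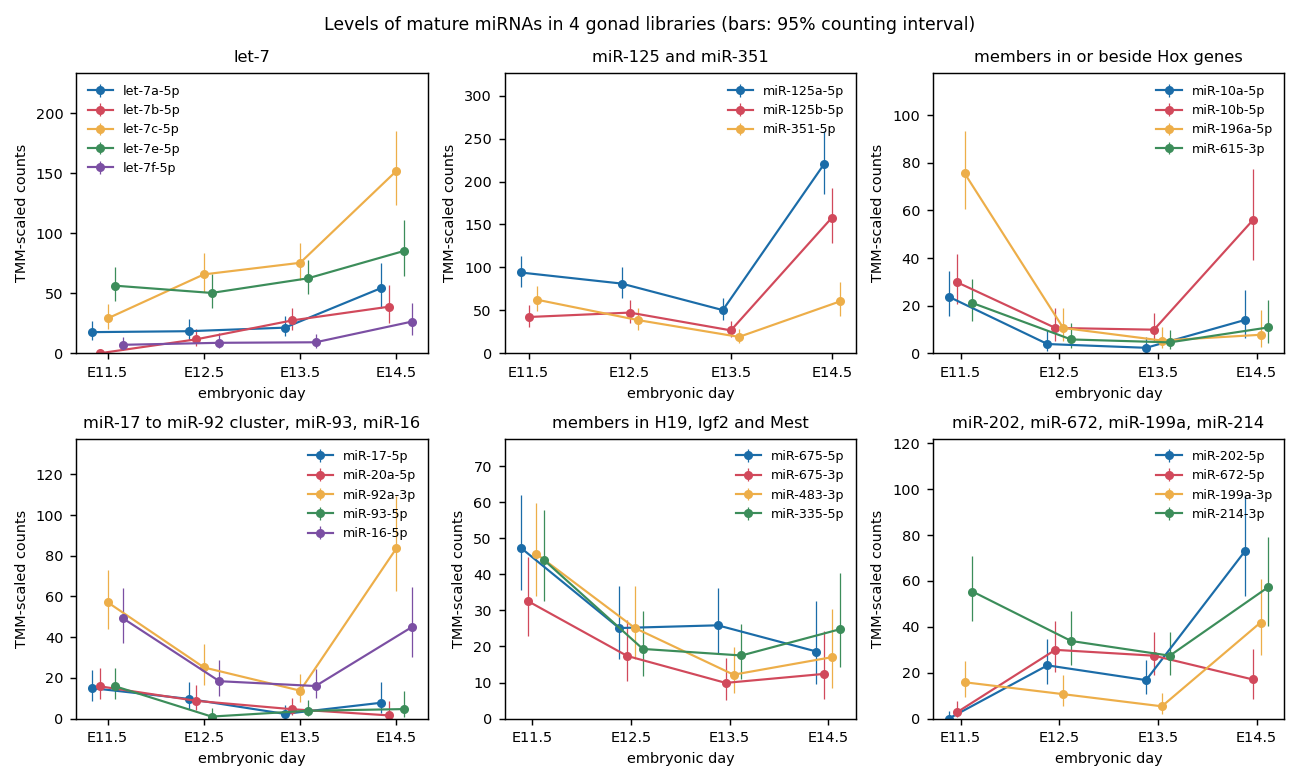
TMM-scaled counts on the y axis by embryonic day on the x axis, for 25 members in 6 panels, with a point for the single library of each age and a bar for its 95% counting interval. let-7c-5p is higher at each successive age on this scale (its last step is flat on total counts), miR-196a-5p and the members in H19, Igf2 and Mest are highest at E11.5, and miR-202-5p starts from a count of 0.

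The members with the miR-125 seed had the highest summed count of the 5 shared seeds at E11.5, E12.5 and E14.5. miR-125a-5p, of the cluster with let-7e, had 107, 84, 66 and 142 counts. miR-125b-5p, counted mainly on the chromosome 16 copy, had 48, 49, 35 and 102 counts. miR-351-5p, an X-linked miRNA in an exon of C430049B03Rik, had 71, 40, 25 and 39 counts. All 3 had their lowest count at E13.5 and a higher one at E14.5. At E14.5 miR-125a-5p was 4.38-fold higher (log2 2.13, 1.70 to 2.57). miR-125b-5p was 5.93-fold higher (log2 2.57, up to 3.17). miR-351-5p was 3.17-fold higher (log2 1.67, 0.91 to 2.45). On total counts the last call was lost (log2 0.65), as was the lower call of miR-351-5p at E13.5 (log2 -1.02 by TMM and -0.99 by total counts).

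The make-up of this seed family differed between E11.5 and E14.5. The share of miR-351-5p was 31.4% (25.4 to 37.9), 23.1% (17.1 to 30.1), 19.8% (13.3 to 27.9) and 13.8% (9.99 to 18.4). The share of miR-125b-5p was 21.2% (16.1 to 27.2), 28.3% (21.7 to 35.7), 27.8% (20.2 to 36.5) and 36.0% (30.4 to 41.9). For both the intervals at E11.5 and E14.5 do not overlap, while miR-125a-5p held 47.3% to 52.4% throughout. Between E12.5 and E14.5, both without mesonephros, the intervals of miR-351-5p overlap, as do those of miR-125b-5p. The mesonephros was in the E11.5 library only, so its removal and the age cannot be told apart in these shares.

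miR-125a-5p lies with miR-99b-5p and let-7e-5p in a cluster of 647 bases, chr17:17830194-17830840 on the plus strand of mm10, in an exon of Spaca6. The proportions within the cluster changed with age. let-7e-5p was 33.9% (27.2 to 41.1), 34.9% (27.3 to 43.1), 53.6% (45.4 to 61.7) and 24.9% (19.3 to 31.1) of its counts. miR-125a-5p was 56.6%, 56.4%, 43.1% (35.2 to 51.4) and 64.3% (57.6 to 70.6). Both pairs of intervals at E13.5 and E14.5 are apart. miR-99b-5p had 18, 13, 5 and 24 counts, was lower at E13.5 (log2 -1.72, -3.56 to -0.14) and was 9.77-fold higher at E14.5 (log2 3.29, 1.87 to 5.03). The host row Spaca6 had log2 ratios of -0.22, 0.18 and -0.23.

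**Figure D3:**
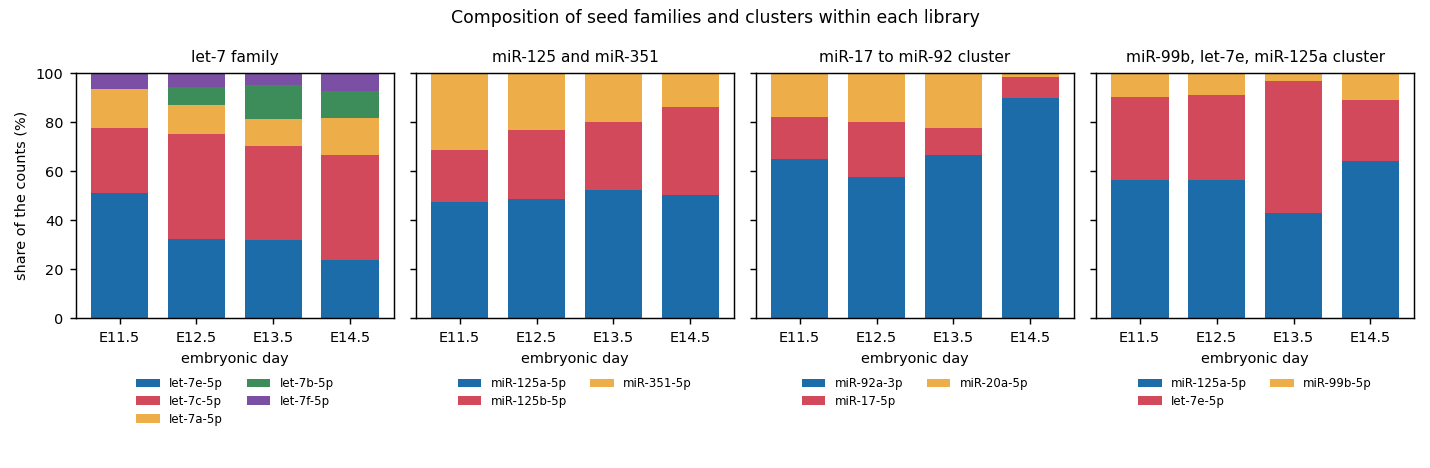
Share of the counts of each seed family or cluster (y axis, in %) taken by each member, by embryonic day (x axis), for the let-7 seed, the miR-125 seed, the miR-17 to miR-92 cluster and the cluster of miR-99b, let-7e and miR-125a. Only counts of members enter the shares. Between E11.5, the library with mesonephros, and E14.5, let-7e goes from 51.2% to 23.9% of the let-7 counts and miR-351 from 31.4% to 13.8% of its seed family. miR-92a holds 54 of the 60 counts of its cluster at E14.5.

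The members that lie in or beside Hox genes, which pattern the body axis, were lower at E12.5 than at E11.5. miR-196a-5p, counted mainly at chr15:102973365-102973386, had 86, 11, 7 and 5 counts. miR-10a-5p, at chr11:96317186-96317208 in an intron of Hoxb3, had 27, 4, 3 and 9 counts. miR-615-3p, in an intron of Hoxc5, had 24, 6, 6 and 7 counts. Each had its highest count at E11.5, which no later library reached. The difference at E12.5 was 7.11-fold for miR-196a-5p (log2 -2.83, -3.89 to -1.92). For miR-10a-5p it was 6.14-fold (log2 -2.62, -4.59 to -1.10). For miR-615-3p it was 3.64-fold (log2 -1.86, -3.44 to -0.54).

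miR-10b-5p, at chr2:74726074-74726096 in introns of Hoxd3 and Hoxd4, went down and came back. It had 34, 11, 13 and 36 counts. It was 2.81-fold lower at E12.5 (log2 -1.49, -2.62 to -0.48) and 5.63-fold higher at E14.5 (log2 2.49, 1.55 to 3.53). The lower calls of all 4 Hox-linked members and this higher call held under all 5 scalings. Of the 4, miR-10a-5p and miR-615-3p reached 10 counts in the E11.5 library alone. Their higher level there is thus part of how they were chosen and lends no weight to the step. In the pair that shares a seed, miR-10b-5p took 55.7% (42.4 to 68.5), 73.3% (44.9 to 92.2), and 81.2% (54.4 to 96.0) of the counts from E11.5 to E13.5, with 36 of 45 counts (65.4% to 90.4%) at E14.5, and these intervals overlap.

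The host rows lay on the same side of 0 in the first step. Hoxb3 had 2020, 238, 270 and 163 counts (log2 -2.95 at E12.5). Hoxc5 had 910, 339, 502 and 219 counts (log2 -1.29). Hoxd4 had 1643, 861, 1025 and 417 counts (log2 -0.80), under the 2-fold limit, and Hoxd3 was at -0.72. At E14.5, where miR-10b-5p was higher, Hoxd3 and Hoxd4 were at -0.39 and -0.27.

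The mesonephros was in the E11.5 library only, so its removal and the age cannot be told apart in any ratio or share that sets a later age against E11.5. Its 5 marker genes summed to 3476 counts at E11.5 and to 763, 830 and 522 later, and none was at 0 in any library. Of them Wnt9b went from 575 counts to 10, Pax2 from 1531 to 60 and Osr1 from 615 to 111, each called lower, while Pax8 (log2 -0.81) and Lhx1 (0.65) were not. The part of the mesonephros in the lower Hox-linked members was not tested.

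The members of the miR-17 to miR-92 cluster had their highest unscaled counts at E11.5, whereas on the TMM scale miR-92a-3p was highest at E14.5 (83.6 against 57.1 at E11.5). miR-92a-3p had 65, 26, 18 and 54 counts. miR-17-5p had 17, 10, 3 and 5 counts. miR-20a-5p had 18, 9, 6 and 1. The cluster lies at chr14:115043684-115044496 on the plus strand, with miR-92a-3p in an exon of the listed row Mir17hg, the primary transcript. miR-92a-3p was lower at E12.5 (log2 -1.19, -1.90 to -0.51) and 6.10-fold higher at E14.5 (log2 2.61, 1.82 to 3.47). The lower call was lost when scaled by the members' sum without miR-6538 and miR-5099 (log2 -0.91). miR-17-5p was lower at E13.5 (log2 -2.08, -4.58 to -0.12), on 3 counts there. miR-20a-5p was called in no step, and at E14.5 miR-17-5p and miR-20a-5p had too few counts to be called.

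Among the members of the cluster miR-92a-3p had 65.0% (54.8 to 74.3) of the counts at E11.5, 57.8% (42.2 to 72.3) at E12.5 and 66.7% (46.0 to 83.5) at E13.5. At E14.5 it had 54 of 60 counts (79.5% to 96.2%). The last interval lies above those of E11.5 and E12.5 and overlaps that of E13.5. Mir17hg had 1185, 709, 782 and 332 counts, with log2 ratios of -0.60, -0.20 and -0.21. miR-92a-3p has another position on the X chromosome, and 88.4% of the hairpin counts lay on the chromosome 14 copy, so the shares above include counts from the X copy.

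miR-93-5p, of the related cluster in an intron of the replication gene Mcm7, had 18, 1, 5 and 3 counts. It was lower at E12.5 under all 5 scalings (ratio 16.4-fold, log2 -4.03, -9.41 to -1.37), on a single count there. Mcm7 had 5178, 4876, 5094 and 2058 counts and a log2 ratio of 0.05 in that step. The members with this seed, miR-17-5p, miR-20a-5p and miR-93-5p, summed to 53, 20, 14 and 9 counts, with TMM log2 ratios of -1.27, -0.86 and 0.39, the last -0.63 on total counts.

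miR-15b-5p and miR-16-5p, a family known for repressing cell cycle genes, lie in an intron of Smc4 at chr3:69009775-69009939 on the plus strand. miR-16-5p had 56, 19, 21 and 29 counts. miR-15b-5p had 13, 9, 5 and 13 counts. miR-16-5p was lower at E12.5 under all 5 scalings (log2 -1.42, -2.26 to -0.65). At E14.5 both were higher, miR-16-5p at log2 1.49 (0.63 to 2.37) and miR-15b-5p at 2.40 (0.82 to 4.24), and neither call was made on total counts. Smc4, a condensin subunit, had log2 ratios of 0.01, -0.06 and -0.16.

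The members of imprinted host genes had their highest unscaled counts at E11.5 and their lowest at E14.5. On the TMM scale they were also highest at E11.5, but miR-675-3p, miR-483-3p and miR-335-5p were lowest at E13.5. miR-675-5p, from an exon of the long noncoding RNA H19, had 54, 26, 34 and 12 counts. The other arm, miR-675-3p, had 37, 18, 13 and 8. H19 itself had 105987, 65281, 78169 and 31280 counts. The log2 ratios at E12.5 were -0.92, -0.90 and -0.56 for these 3 rows, without a call for either arm. miR-675-5p was lower at E14.5 on total counts (log2 -1.49) and not by TMM (-0.48).

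miR-483-3p, from an intron of the growth factor gene Igf2, had 52, 26, 16 and 11 counts. It was not called at E12.5 (log2 -0.86) and was lower at E13.5 (log2 -1.05, -2.04 to -0.09), a call lost when scaled by the members' summed counts. Igf2 had 97656, 51501, 58939 and 23954 counts, with log2 ratios of -0.79, -0.15 and -0.27. miR-335-5p lies in an intron of Mest, a gene expressed from the paternal allele. miR-335-5p had 50, 20, 23 and 16 counts and was lower at E12.5 (log2 -1.19, -2.01 to -0.41). This call was lost when scaled by the members' sum without miR-6538 and miR-5099 (log2 -0.91). Mest had 40364, 21968, 24669 and 11550 counts and a log2 ratio of -0.74 in that step. H19, Igf2 and Mest thus lay below 0 with their miRNAs at E12.5, by less than 2-fold.

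miR-202-5p and miR-672-5p were the members of the gonad-enriched list, in which 8 of 34 rows had a count. miR-202-5p, at chr7:139957732-139957752 on the minus strand, had 0, 24, 22 and 47 counts. It was 8.79-fold higher at E12.5 against the floor of 3 counts, with a lower limit of log2 2.73 by the counting interval. It was 4.35-fold higher again at E14.5 (log2 2.12, 1.36 to 2.92) and 1.11 on the log2 scale of total counts, also called. The other arm, miR-202-3p, had 0, 7, 5 and 6 counts and is no member. The hairpin had 0, 30, 27 and 52, so the 5p arm held most of its counts at each age with a count.

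miR-672-5p, at chrX:104116228-104116250 in an intron of C77370, had 3, 31, 36 and 11 counts. It was 11.4-fold higher at E12.5 (log2 3.51, 1.82 to 5.86), on 3 counts at E11.5. C77370 had 347, 1863, 3921 and 1935 counts and a log2 ratio of 2.56 in the same step. At E14.5 miR-672-5p stood at -0.69 by TMM, without a call, and was lower at -1.70 on total counts, while C77370 was at 0.01 by TMM. The E12.5 calls of miR-202-5p and miR-672-5p held under all 5 scalings.

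Gonad marker genes moved in the same step as these miRNAs. Of 10 genes 8 were higher at E12.5, and Sox9 (log2 0.77) and Wt1 (-0.15) were not called. Amh, the Sertoli cell hormone, had 45, 8900, 10299 and 5683 counts. Nr5a1, a regulator of steroidogenic cells, had 2136, 4962, 6595 and 3366 counts. Dazl, a germ cell RNA-binding protein, had 53, 4555, 8230 and 3061 counts. No gonad marker was at 0 in any library.

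miR-199a-3p and miR-214-3p, known from mesenchyme, lie in exons of the long noncoding RNA Dnm3os at chr1:162217883-162223459 on the plus strand. miR-214-3p had 63, 35, 36 and 37 counts. miR-199a-3p had 18, 11, 7 and 27 counts. At E14.5 miR-199a-3p was 7.85-fold higher (log2 2.97, 1.74 to 4.42) and miR-214-3p 2.09-fold (log2 1.06, 0.36 to 1.77), the latter not on total counts (log2 0.05). Dnm3os had 4133, 3321, 5095 and 2509 counts and a log2 ratio of 0.00 in that step. The share of miR-199a-3p in the pair was 16.3% (6.81 to 30.7) at E13.5 and 42.2% (29.9 to 55.2) at E14.5, with intervals that overlap slightly.

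Smaller intronic members added to the calls. miR-5100, in Mief2, had 77, 48, 44 and 50 counts. miR-423-5p, in Ccdc55, had 26, 16, 16 and 26. miR-26a-5p, in Ctdspl, had 17, 10, 15 and 23. These 3 were higher at E14.5 by TMM (log2 1.21, 1.73 and 1.64) and not on total counts. miR-744-5p, in Map2k4, had 15, 4, 2 and 4 counts and was lower at E12.5 (log2 -1.77, -3.82 to -0.12), a call that was lost on total counts. It reached 10 counts at E11.5 alone, so its higher level there is part of how it was chosen. miR-23b-3p, in an exon of 2010111I01Rik, had 6, 4, 1 and 11 counts and was higher at E14.5 (ratio 22.4-fold, log2 4.48, 1.70 to 9.91), on a single count at E13.5.

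The hairpin rows span the mature strands of the 68 members and show how much of the hairpin count lies on each. They share counts with the mature rows that the rule used, and 15 members had the same total on both. They are therefore no separate measure of level. By the position with most hairpin counts, 11 members lay within a snoRNA, a scaRNA or a tRNA, 21 in an exon of another row, 19 in an intron and 17 elsewhere. Over all members the median share of the hairpin counts that lay on the mature strand was 95.3%. It was 99.2% for the intronic members and 97.2% for those elsewhere, against 84.4% for the exonic members and 74.6% for those in another small RNA. No intronic member was under 80%, whereas 6 of 11 in another small RNA and 8 of 21 in an exon were.

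**Figure D4:**
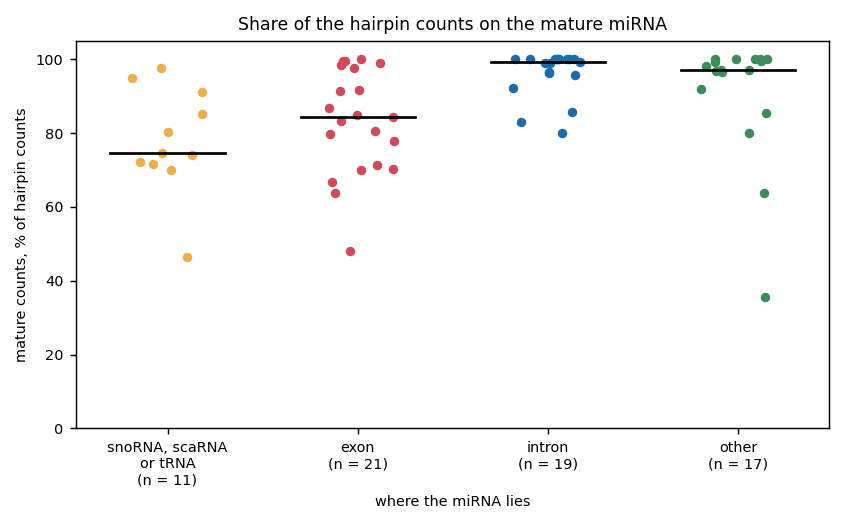
Counts on the mature miRNA as a share of the counts on its hairpin row (y axis, in %, summed over the 4 libraries), for members grouped by where they lie (x axis). Each point is 1 member and the black lines are medians, which are 74.6% in another small RNA, 84.4% in exons, 99.2% in introns and 97.2% elsewhere.

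At some hairpins the counts of the 5p and 3p arms added up to more than the hairpin, so that reads must have been counted on both. miR-6516-3p had 135, 134, 108 and 87 counts. miR-6516-5p had 107, 110, 94 and 82. Their hairpin, within the scaRNA Gm26083, had 156, 157, 130 and 102. At least 312 of its 545 counts, or 57.2%, were thus counted on both arms. miR-3069-3p, within Scarna13, had 88, 72, 99 and 56 counts. miR-3069-5p had 65, 54, 78 and 51, and at least 62.7% of the hairpin counts were on both arms.

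miR-3068-3p and miR-3068-5p, at a row that GENCODE types as a snoRNA, were alike in this. miR-3068-3p had 33, 27, 21 and 39 counts. miR-3068-5p had 21, 12, 7 and 17, and at least 43.9% of the hairpin counts were on both arms. Of 30 hairpins with both arms listed, 7 had at least 10% of their counts on both, the others being miR-3063, miR-3064, miR-675 and miR-93. At 13 hairpins no count had to lie on both arms, among them those of miR-10b, miR-351, miR-335, miR-615 and miR-672. The share was 0.752% for miR-125a and 1.57% for let-7e.

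Beside both arms of miR-6516, miR-3069 and miR-3068, 5 members lay within another small RNA. miR-3535, within the snoRNA Gm24148 in an intron of Ncl, had 152, 87, 76 and 126 counts. miR-1983, within the tRNA gene Trnai-uau, had 65, 26, 10 and 25. miR-1291, within Snora34, had 38, 27, 27 and 38. These small RNAs guide RNA modification or, for the tRNA, carry isoleucine. miR-1940, within Snora47, had 20, 16, 22 and 39 counts. miR-1949, at a row typed as a snoRNA in an intron of Snhg4, had 26, 18, 14 and 18.

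In the last step 7 of these 11 members were higher, namely these 5 and both arms of miR-3068, with log2 ratios between 1.39 for miR-1949 and 2.35 for miR-1983. That is 63.6%, beside 66.7% of counted intronic members, 58.3% of all counted members and 5.59% of all counted rows. At least 16 of the 40 hairpin counts of miR-3068 at E14.5 were on both arms, so its arms are not separate signals. Of the 7, miR-1983 kept the call on total counts. The rows of the surrounding small RNAs went the same way. Snora47 was at log2 2.42, beside 1.85 for miR-1940. Snora34 was at 1.85, beside 1.52 for miR-1291. Trnai-uau was at 1.30, beside 2.35 for miR-1983. The protein-coding genes around the snoRNAs lay below 0, with Ncl at -0.20, Zbed3 at -0.07 and Kansl2 at -0.24. miR-1983 had also been lower at E12.5 (log2 -1.19) and at E13.5 (-1.72), where Trnai-uau, with 71, 28, 19 and 23 counts, was at -1.21 and -0.90. The E12.5 call of miR-1983 was lost when scaled by the members' sum without miR-6538 and miR-5099 (log2 -0.91).

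Some members overlap messenger RNA rows of far higher counts, or have a sequence that also occurs in a transcript from elsewhere. miR-546, in an exon of Ctdsp2, had 28, 31, 26 and 17 counts and held 63.8% of its hairpin counts. miR-703 had 43, 43, 51 and 15 counts, 35.7% of its hairpin, and its mature sequence occurs whole in a transcript of Eef1a1, a translation elongation factor. miR-3063-3p, in an exon of Igf2bp1, had 13, 3, 4 and 1 counts. Neither miR-546 nor miR-703 was called by TMM, while miR-3063-3p was lower at E12.5 (log2 -1.98, -4.43 to -0.12) and not on total counts. Igf2bp1, an RNA-binding protein gene, had 12489, 6126, 4762 and 1451 counts and was at -0.89 in that step.

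A pair of exonic members was higher at E12.5. miR-8108, in Tacc1, had 6, 16, 9 and 3 counts (log2 1.55, 0.12 to 3.19). miR-8097, in Rnf19a, had 5, 14, 6 and 2 counts (log2 1.62, 0.07 to 3.45). Tacc1 and Rnf19a were at 1.02 and 0.82 in the same step. At E13.5 miR-8097 was lower (log2 -1.57), as were miR-719 in an exon of Nupl1, with 6, 13, 5 and 8 counts (log2 -1.72), and miR-3064-3p in an intron of Ddx5, with 3, 10, 3 and 4 counts (log2 -2.08). miR-8108, miR-8097, miR-719 and miR-3064-3p reached 10 counts in the E12.5 library alone. Their higher level there is part of how they were chosen and lends no weight to these calls.

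For 33 members the mature sequence occurred whole in a GENCODE transcript of another kind. Since the libraries were made from fragmented total RNA, counts of such members can include pieces of the longer RNA, and the size of that share was not tested. Of the 18 exonic members with a sequence 7 began with U, against 15 of 18 intronic members.

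Hosts and members were set side by side wherever a host row was listed. In the first step 9 pairs of an intronic member that was called and its host were found, of which 6 had the same sign, and 4 exonic pairs, which all had. The 3 intronic pairs of unlike sign were those of miR-16-5p with Smc4, miR-93-5p with Mcm7 and miR-744-5p with Map2k4. Among the members of these first-step pairs, miR-10a-5p, miR-615-3p, miR-93-5p, miR-744-5p, miR-3063-3p, miR-8108 and miR-8097 were kept because of 1 library alone. In the last step 2 of 15 pairs with an intron host and 0 of 7 exonic pairs had the same sign, as did 3 of 3 pairs with a small RNA row. The 15 include members within another small RNA: miR-3535, miR-1940, miR-1291, miR-1949 and both arms of miR-3068. Dnm3os, the host of miR-199a-3p and miR-214-3p, stood at 0.00 and was taken as unlike. All called members were higher in this step, while 11476 of 19351 counted rows lay below 0. The number of like signs thus says little about hosts. A host with several members and a member with several hosts give more than 1 pair, so these pairs are not independent.

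**Figure D5:**
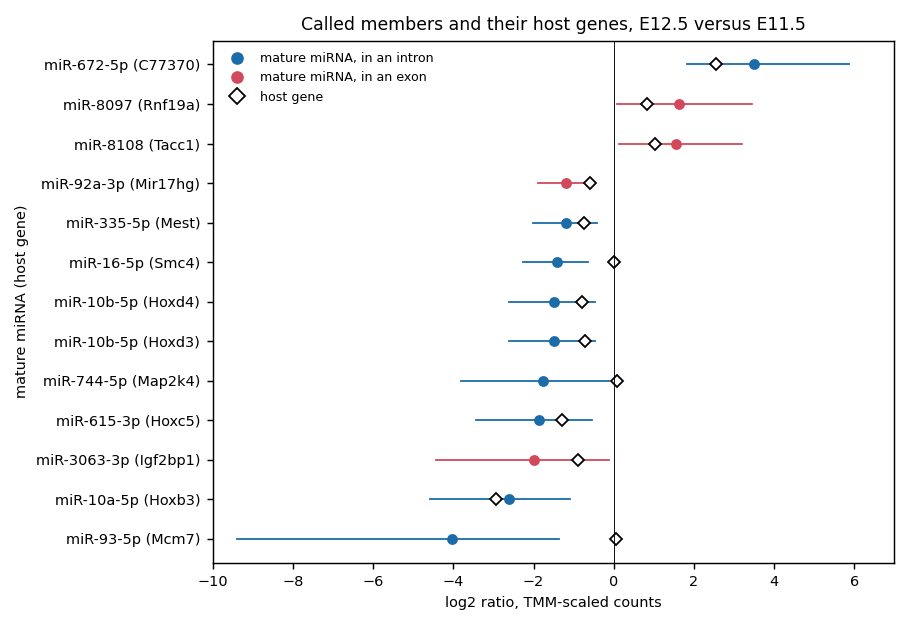
Log2 ratio of TMM-scaled counts, E12.5 versus E11.5, on the x axis for each called member with a host gene (y axis, host in parentheses). Coloured points with lines are the mature miRNA with its 95% counting interval and diamonds are the host gene. The hosts of miR-672-5p and miR-10a-5p lie far from 0 with their members, at 2.56 and -2.95, while Smc4, Map2k4 and Mcm7 lie at 0.01, 0.09 and 0.05.

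The 11 members with a pair of genomic positions had 88.4% to 100% of their hairpin counts on one hairpin. let-7c-5p was counted on the let-7c-1 hairpin of chromosome 16, with 33, 68, 98 and 97 counts. The let-7c-2 hairpin beside let-7b on chromosome 15 had 0, 1, 2 and 1. miR-125b-2, the main hairpin of miR-125b-5p, also lies on chromosome 16. It had 46, 47, 35 and 101 counts, and in the first step miR-125b-5p stood at log2 0.17 without a call while let-7c-5p was higher. Of the 13 clusters 9 held the main hairpin of every member, and 5 of these were both arms of a single hairpin. How reads with equal positions were placed is not given in the sources used here.

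miR-2137 and miR-6238 were near 0 counts until E14.5. miR-2137, in an intron of Zfp185, had 5, 2, 0 and 64 counts. miR-6238 had 2, 0, 0 and 22 counts. Against the floor of 3 counts at E13.5 they were 43.4-fold and 14.9-fold higher at E14.5, with lower limits of log2 5.10 and 3.48. The hairpin rows of both held the same counts as the mature rows, and Zfp185 was at log2 0.02 in this step. The rRNA row Rn18s-rs5 had 2833632, 334505, 325792 and 12816977 counts, and the left-out miR-6236 had 15354, 2133, 2025 and 88495. Their log2 ratios at E14.5 were 6.32 and 6.47. Whether pieces of rRNA are among the counts of miR-2137 and miR-6238 was not tested.

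Of the 3 members with the most counts, miR-5126 was higher at E14.5. It had 387, 350, 313 and 552 counts (log2 1.84, 1.64 to 2.05, and 0.83 on total counts, without a call). miR-6538, in an intron of Rnf144a, had log2 ratios of 0.25, -0.35 and 0.32. miR-5099 had 0.28, -0.47 and -0.11, and was lower at E14.5 on total counts. For miR-6538, miR-5099 and miR-5126 the hairpin row held exactly the counts of the mature row in each library. Rnf144a had 3072, 3811, 4704 and 2064 counts.

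The 14 members not reached by the rule for naming were not called by TMM and had highest counts of 11 to 25. They lie in an exon in 6 cases, in an intron in 2 and elsewhere in 6, and 8 had their highest count at E11.5. The pluripotency, epithelial, endothelial, erythroid, leukocyte, neuronal, skeletal and heart muscle, and liver lists of miRNAs held no member. By contrast, the gonad-enriched list held miR-202-5p and miR-672-5p. The list for mesenchyme and smooth muscle held miR-199a-3p and miR-214-3p, with a highest count of 63. Of 26 rows of the pluripotency clusters miR-290 and miR-302, 8 had a count and the highest was 4. The highest count was 2 in the epithelial list, 4 in the endothelial, 1 in the erythroid, where it was miR-451a, 1 in the leukocyte, 3 in the neuronal, 8 in the muscle and 2 in the liver list. A list for the Dlk1-Dio3 region held 89 rows, of which 59 had a count, and it includes some rows from outside the region. Its single member, miR-342-3p, is of that kind and lies in an intron of Evl. No other row of this list was a member.

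Low counts of erythroid and endothelial miRNAs stood beside high counts of messenger RNAs from those cells. The 5 erythroid genes summed to 38472, 60858, 51829 and 17025 counts, and the 4 endothelial genes to 11161, 10218, 9961 and 4348. A miRNA at or under 3 counts in every library was too sparse to be compared between ages. A row without a count does not show that the miRNA was absent.

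Few genes of the machinery that makes and uses miRNAs were called. Drosha, the nuclear cleavage enzyme, had 4626, 3989, 4770 and 2067 counts. Dicer1, the cytoplasmic one, had 7023, 5560, 6212 and 2383. Ago2, the slicing Argonaute, had 8352, 6308, 7708 and 2997. Of the 27 pathway genes 1 was higher and 1 lower at E12.5, Lin28a and Lin28b, and none was called in the other steps. Their median log2 ratios were -0.08, -0.02 and -0.16. In the last step, in which 28 members were higher by TMM, the 7 microprocessor and export genes lay between -0.53 and -0.09.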

How the data were processed

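The deposited files list read counts per row beside RPKM and TPM values. The authors made the counts with the Bio-Rad SeqSense toolkit (cutadapt, STAR on mm10, UMI-tools, bedtools, featureCounts), in which reads were split into long and microRNA reads and counted apart. Versions, annotation and placement of reads with several positions are not given in the sources used here. The deposited RPKM and TPM values, which the authors computed from those counts, were not used.

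Members and lists were chosen with earlier results of these data known. Ratios used TMM factors over all 40999 rows (edgeR 4.0.16, R 4.3.3) with exact Clopper-Pearson 95% intervals (scipy 1.17.1), a minimum of 10 counts, a fold of 2, a floor of 3 counts for a count of 0, and no p-value, since each age has 1 library. The calling step was run on simulated counts that held counting error only and planted changes larger than the fold of 2. It therefore does not test the calls against a spread between replicates or near the limit. Alternatives were DESeq2 1.42.0 size factors, total counts, the members' sums, other minima and folds, and the edgeR exact test with an assumed biological coefficient of variation of 0.1 or 0.4. Members were named when they had at least 30 counts in a library or were called, and others by group. Clusters join positions within 10 kb. Hosts are rows on the same strand around the position with most hairpin counts. Small RNA types came from the files and GENCODE M21. Calculations used Python 3.11.15, numpy 2.4.6, pandas 2.3.3 and matplotlib 3.10.9.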

Additional observations from a re-analysis of the deposited data

How the results depend on the processing

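From E11.5 to E12.5, 17 members were called. With at least 20 counts they were 11, at a fold of 4 they were 6, and in the edgeR exact test at an assumed coefficient of variation of 0.4 they were 1. The 9 calls from E12.5 to E13.5 became 2 when scaled by the members' summed counts, 2 by that sum without miR-6538 and miR-5099, 4 with at least 20 counts, 2 at a fold of 4, 0 at a coefficient of 0.1 and 0 at 0.4. From E13.5 to E14.5 the 28 calls became 18 on total counts (11 higher, 7 lower), 17 by the members' sum without miR-6538 and miR-5099 (8 higher, 9 lower), 13 at a fold of 4 and 1 at a coefficient of 0.4. By the full sum they were 23 (18 higher, 5 lower). In the first step the sum without miR-6538 and miR-5099 gave 9 higher and 6 lower. This scaling was chosen after seeing the data. Other alternatives kept these counts within 1.5 times, and the cause of the differences was not tested.

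The number of members was 117 at a minimum of 5 counts, 44 at 20 and 31 with 10 counts in every library. Without rRNA rows in the totals the members summed to 248, 261, 203 and 286 CPM, so that E14.5 moved from the lowest to the highest. Without members in other small RNAs they summed to 180, 215, 168 and 128 CPM. No paired analysis was possible because each age has 1 library. With a highest count under 30 in 34 of 68 members, counting error limits these to large ratios.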

Other observations

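On the TMM scale 34 members had their highest level at E14.5, 19 at E11.5, 13 at E12.5 and 2 at E13.5. On total counts these numbers were 15, 31, 15 and 7. The TMM ratio was below 1 in all 3 steps for 3 members, miR-20a-5p, miR-1892 and miR-3063-5p, none of which was called in any step; they were picked out after their values were seen. Of the members called higher at E14.5, 4 had been called lower at E12.5 (miR-10b-5p, miR-16-5p, miR-92a-3p and miR-1983) and 2 had been called higher (let-7c-5p and miR-202-5p).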
